A study of Mus musculus with 12 samples.

Results

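The 34 genes described here mark the amacrine and horizontal cells of the mouse retina, by their inhibitory and cholinergic transmitters, their neuropeptides, their calcium-binding proteins and the transcription factors that give these cells their identity. They were taken by symbol, and each symbol matched 1 Ensembl identifier of the deposited tables, so that 34 of 54532 identifiers were members and all 34 were among the 34538 identifiers with a count. Retinal RNA had been sequenced from 4 groups of wild type C57BL/6 mice aged 13 weeks, with 3 libraries per group and 12 in all. SHAM mice were the controls. MOG mice had been immunized with a myelin oligodendrocyte glycoprotein peptide in complete Freund's adjuvant, followed by pertussis toxin, to induce experimental autoimmune encephalomyelitis (EAE) with optic neuritis. GB20 and GV16 mice had been immunized in the same way and were then repeatedly needled, under xylazine and ketamine, at the acupoint GB20 or at the control acupoint GV16. The mice were female according to the study's methods. Each group held 2 or 3 mice in each of 3 repeats of the experiment. Whether their retinas were pooled into 1 library, whether SHAM mice received adjuvant or toxin, and whether SHAM and MOG mice were anaesthetized are not stated, so p-values measure the spread between these libraries, which may be partly technical.

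Amacrine cells are inhibitory interneurons of the inner retina that contact bipolar cells, ganglion cells and each other. Most release GABA or glycine, and starburst amacrine cells release acetylcholine as well as GABA. Smaller classes are told apart by a neuropeptide, by nitric oxide synthase or by a calcium-binding protein, and many amacrine cells lie displaced among the ganglion cells. Horizontal cells give inhibitory feedback to photoreceptors in the outer retina, and in the mouse they contain calbindin and depend on Onecut1, Lhx1 and Prox1 in development. In RNA of whole retina, fewer cells of a type and less RNA per cell cannot be told apart.

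Total counts were between 15860278 and 19194280 per library, and the 34 members took between 0.171% and 0.191% of them. A member was called a DEG at a Benjamini-Hochberg adjusted p under 0.05 in the edgeR quasi-likelihood test over 18299 genes. Of the 34 members, 33 passed the filter on low counts. Ptf1a, the factor that directs precursors to amacrine and horizontal fate in the embryo, did not, with between 0 and 5 counts per library. Exons of 8 members overlap another gene (Tfap2a, Slc32a1, Slc6a9, Nos1, Penk, Prox1, Onecut1 and Ptf1a). Because the strand setting of the counting is not given, their reads cannot be told apart from those of the partner, which was protein coding only for Slc6a9 (Ccdc24 and B4galt2).

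The neuropeptide genes Vip, Tac1 and Sst are shown as examples by the 250 bases before their RefSeq start (GRCm38.p6), searched for the cAMP response element. Capitals mark the half-site of this element, TGACG or CGTCA on the other strand. In all, 16 members had the half-site in a promoter window. Others among them whose levels are described below, such as Gad2, Neurod2, Onecut1, Chat, Pax6 and Lhx1, are not shown. None of these genes passed in any comparison, and the part of the element in their levels was not tested. The Vip window was chr10:5638968-5639217 on the plus strand, with 1 half-site beginning 79 bases upstream of the start. The Tac1 window was chr6:7554811-7555060 on the plus strand, with half-sites 197 and 43 bases upstream. The Sst window was chr16:23890845-23891094 on the minus strand, where both half-sites overlap in the whole palindrome TGACGTCA, 48 bases upstream. These distances hold for the RefSeq starts. GENCODE vM21 begins Tac1 at 7554879 and Sst at 23890958, inside these windows. By that annotation the nearer Tac1 half-site and the Sst palindrome lie within the genes.
Vip: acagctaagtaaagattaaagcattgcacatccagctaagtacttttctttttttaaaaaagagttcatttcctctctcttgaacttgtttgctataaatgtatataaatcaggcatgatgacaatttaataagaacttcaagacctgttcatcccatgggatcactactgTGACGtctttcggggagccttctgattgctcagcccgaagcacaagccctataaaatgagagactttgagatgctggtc
Tac1: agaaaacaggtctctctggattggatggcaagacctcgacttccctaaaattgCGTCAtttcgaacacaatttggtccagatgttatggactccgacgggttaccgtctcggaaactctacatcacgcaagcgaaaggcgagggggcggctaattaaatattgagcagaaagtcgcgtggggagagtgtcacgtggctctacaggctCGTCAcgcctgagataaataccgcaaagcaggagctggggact
Sst: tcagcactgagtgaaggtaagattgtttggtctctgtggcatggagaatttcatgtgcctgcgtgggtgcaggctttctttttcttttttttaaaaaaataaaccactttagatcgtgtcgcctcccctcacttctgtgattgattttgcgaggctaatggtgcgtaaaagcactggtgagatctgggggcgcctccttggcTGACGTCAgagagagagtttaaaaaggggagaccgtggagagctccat
On both strands, TGACG was found in 20.8% of 32851 RefSeq promoter windows of 300 bases (250 before and 50 after the start) and in 17 of 39 windows (43.6%) of the 27 members that matched the table. The whole element TGACGTCA was found in 1.79% of all windows and in the windows of Pax6 and Sst. The AP-2 motif GCCNNNGGC, searched because 3 members encode AP-2 factors, was found in 16.6% of all windows and in 4 of 39 member windows, and TATAAA in 13.6% and in 7 of 39. These matches are descriptions of the letters in the windows, and no member was selected on them.

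By FPKM, which is scaled by gene length and allows genes to be compared, Calb2 had the highest level of the members (mean of 107 FPKM over 12 libraries). Calb2 encodes calretinin, a calcium-binding protein of amacrine and ganglion cells. It was followed by Gad1 (30.9 FPKM), which makes GABA, Pax6 (26.0 FPKM), the vesicular inhibitory transmitter carrier Slc32a1 (25.9 FPKM) and the amacrine factor Tfap2b (25.3 FPKM). The lowest levels among the tested members were those of Nos1 (0.955 FPKM), Crh (0.899 FPKM), Onecut1 (0.737 FPKM), Onecut2 (0.587 FPKM) and Neurod6 (0.565 FPKM), while Ptf1a had 0.0916 FPKM. Each of the 33 tested members had counts in all 12 libraries.

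**Figure D1:**
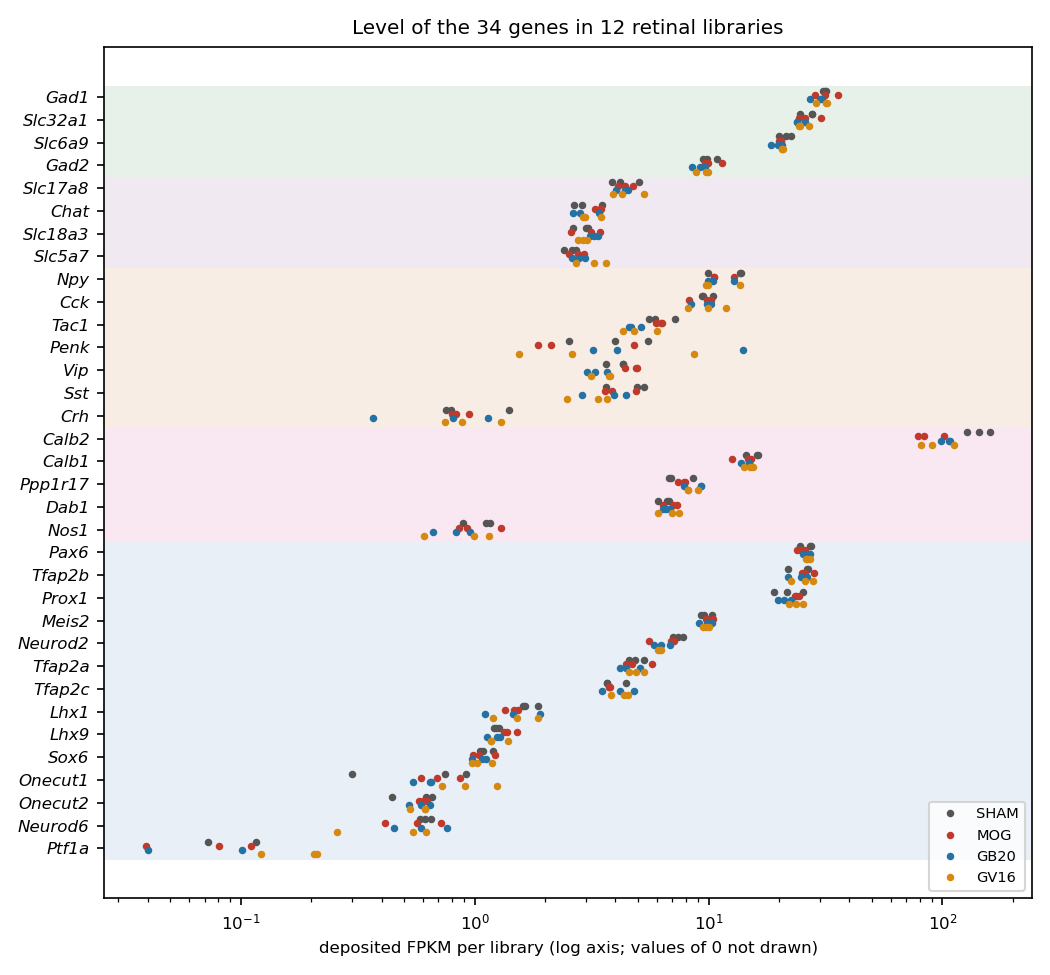
Deposited FPKM of the 34 genes in each of 12 libraries on a log axis, with genes in rows grouped by role (shaded bands) and coloured points for the libraries of SHAM, MOG, GB20 and GV16. Most genes keep a narrow range over all libraries, Calb2 is the highest and is set apart in SHAM, and Penk is spread widely.

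The first question was whether these genes differed between immunized and SHAM retinas. In MOG vs. SHAM, 1 of 33 tested members was a DEG, where 1.34% of all tested genes were. At an unadjusted p under 0.05 the same count was 1 of 33 against 13.0% of all genes, and in 4 of 33 the libraries of both groups did not overlap, against 16.2% of all genes. The median log2 fold change of the members was 0.001, beside -0.0023 over all tested genes, and it was -0.06 without MOG replicate 1. For 31 of 33 members the log2 fold change was within 0.25 of 0 in either direction, and for 26 of 33 the whole 95% interval lay within 0.5 of 0. Over all tested genes these counts were 13753 and 10943 of 18299.

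The member that differed was Calb2 (ENSMUSG00000003657, chr8:110137502-110168210, minus strand, GRCm38). Its level was 252.8, 280.3 and 223.5 CPM in the SHAM libraries. It was 177.8, 147.8 and 138.2 CPM in the MOG libraries. It was 190.4, 172.3 and 185.6 CPM in the GB20 libraries and 196.2, 158.2 and 141.9 CPM in the GV16 libraries. All 9 libraries of immunized mice were below all 3 SHAM libraries, while the 3 immunized groups overlapped each other. Calb2 fell by 0.71 on the log2 scale in MOG vs. SHAM (SE 0.115, edgeR quasi-likelihood test, Benjamini-Hochberg adjusted p = 0.00306), a change of -38.7% with a 95% interval from -48.1% to -27.5%. It fell by 0.61 in GV16 vs. SHAM (SE 0.114, edgeR quasi-likelihood test, Benjamini-Hochberg adjusted p = 0.0177), a call that was lost without SHAM replicate 1, SHAM replicate 2, GV16 replicate 2 or GV16 replicate 3, with adjusted p between 0.106 and 0.129. In GB20 vs. SHAM the log2 fold change was -0.46 (SE 0.114, edgeR quasi-likelihood test, Benjamini-Hochberg adjusted p = 0.102), which did not pass. The same difference passed under 5 of 19 alternatives, among them the fit with the replicate number as a block (-0.46, adjusted p = 0.00727). Between the immunized groups, the log2 fold change of Calb2 was 0.24 in GB20 vs. MOG with a 95% interval from -0.0005 to 0.48, 0.10 in GV16 vs. MOG and 0.14 in GB20 vs. GV16, none of which passed.

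Calretinin is also made by ganglion cells, so markers of those cells are given beside it. All 12 of 12 ganglion cell markers (such as Rbpms, Pou4f1, Nefl and Slc17a6) fell in MOG vs. SHAM, with a median log2 fold change of -0.90, and passed the test. In GB20 vs. SHAM 5 of 12 passed (median -0.62) and in GV16 vs. SHAM 11 of 12 passed (median -0.78), while all 12 had an unadjusted p under 0.05 and lay below every SHAM library in both. Their summed level was between 870.7 and 987.6 CPM in SHAM, 483.8 and 584.7 CPM in MOG, 580.0 and 603.2 CPM in GB20, and 456.0 and 662.2 CPM in GV16, with 0 markers at a count of 0. Of the needled groups vs. MOG, 0 of 12 passed in either. In GB20 vs. MOG all 12 had a positive log2 fold change (median 0.19). There, 4 had an unadjusted p under 0.05 (33.3%, against 8.0% of all genes) and 4 lay above MOG without overlap (33.3%, against 15.7%). In GV16 vs. MOG 9 of 12 were positive and 3 negative (median 0.11). There, 0 had an unadjusted p under 0.05 (all genes 5.3%) and 1 lay above MOG without overlap (8.33%, against 12.6%). The part of the ganglion cell markers in the level of Calb2 was not tested. Bipolar cell markers (10) and rod markers (8) had 0 DEGs in each of the 6 comparisons.

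**Figure D2:**
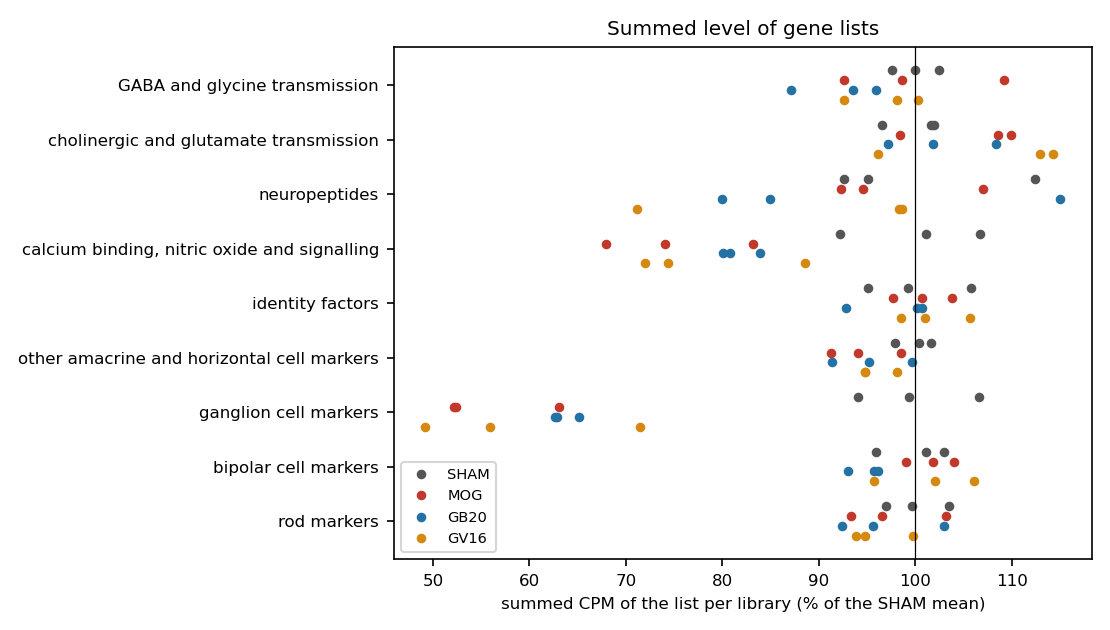
Summed CPM of the member roles and of other gene lists in each library, as percent of the SHAM mean (vertical line at 100), with 1 point per library and a colour per group. The ganglion cell markers of all 9 libraries of immunized mice lie below SHAM, as does the calcium-binding and signalling group, which Calb2 leads, while the GABA and glycine, cholinergic and identity groups overlap SHAM in MOG. In GB20 the GABA and glycine group lies below SHAM (87.1% to 95.9%, against 97.6% to 102.4%).

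In GB20 vs. SHAM, 0 of 33 members passed, where 0.344% of all tested genes did, 5 of 33 had an unadjusted p under 0.05 (all genes 9.06%) and 5 of 33 did not overlap (all genes 12.7%). The median log2 fold change was -0.08, beside 0.0009 over all tested genes. In GV16 vs. SHAM, 1 of 33 passed (all genes 0.656%), 5 of 33 had an unadjusted p under 0.05 (all genes 10.9%) and 2 of 33 did not overlap (all genes 14.5%), with a median of -0.0033 beside -0.0041. These 3 comparisons share the SHAM libraries, so their values are given side by side and were not compared with each other.

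**Figure D3:**
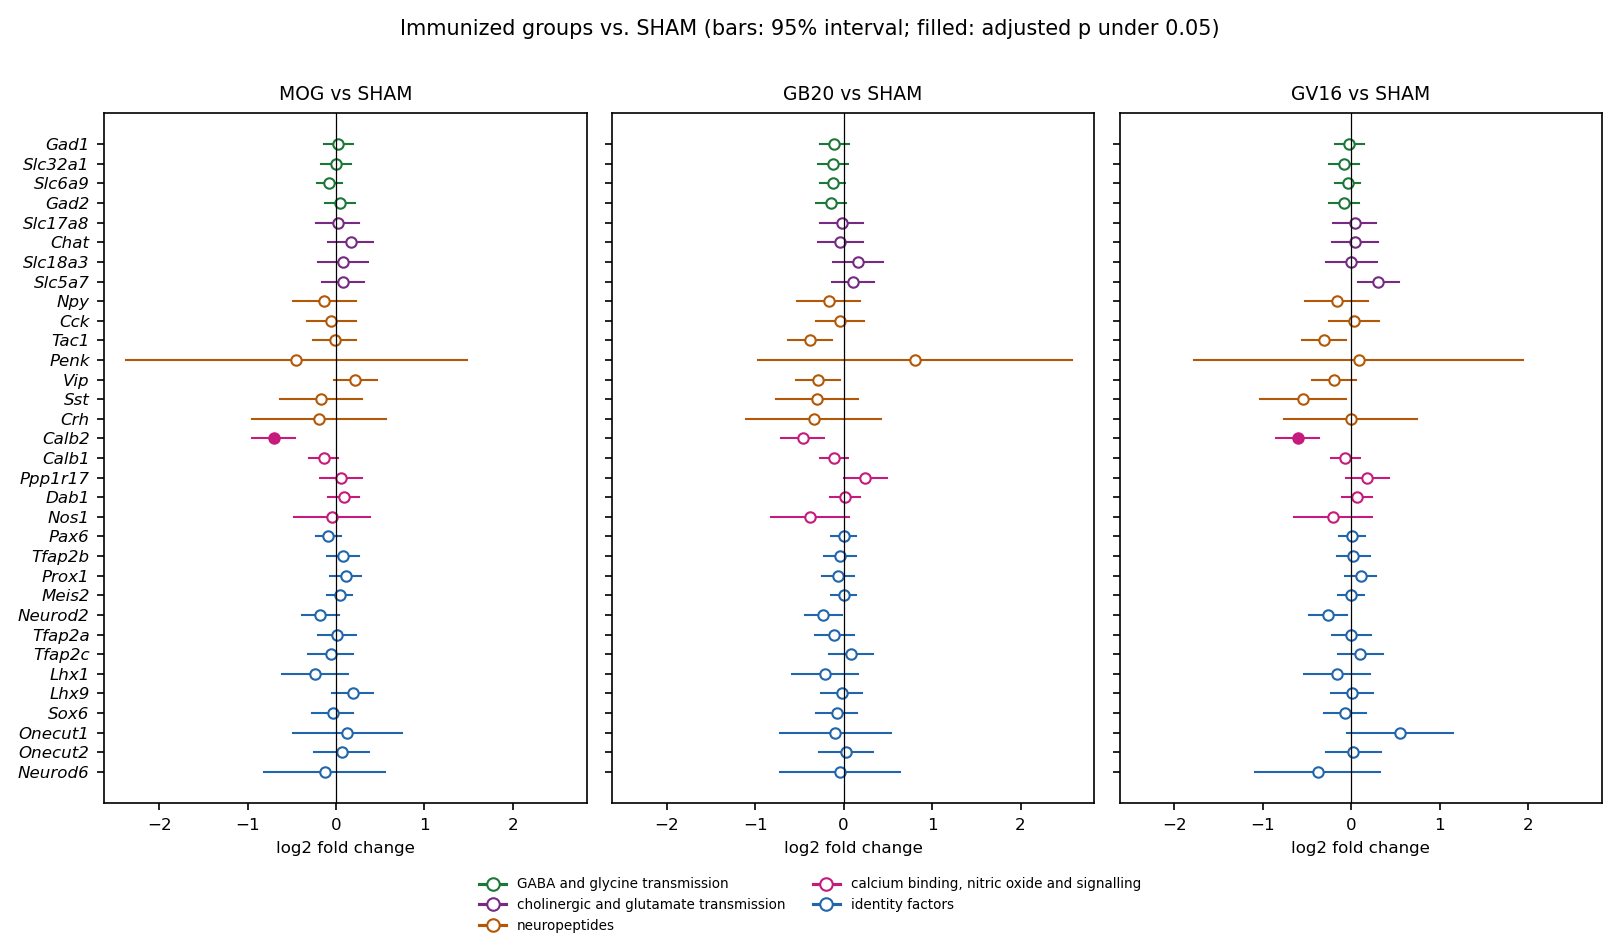
Log2 fold change of the 33 tested genes in MOG, GB20 and GV16 vs. SHAM, with points for the estimates, bars for the 95% intervals, colours for the role, and filled points for an adjusted p under 0.05. Calb2 is the filled point in MOG and GV16, and the intervals of most other genes include 0.

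The second question was whether needling changed the levels of these genes in immunized retinas. In GB20 vs. MOG, 0 of 33 passed (all genes 0.24%), 3 of 33 had an unadjusted p under 0.05 (all genes 8.0%) and 5 of 33 did not overlap, each of them below MOG (all genes 15.7%). In GV16 vs. MOG, 0 of 33 passed (all genes 0.164%), 2 of 33 had an unadjusted p under 0.05 (all genes 5.3%) and 5 of 33 did not overlap, 4 above MOG and 1 below (all genes 12.6%). Over all genes, 1456 lay above and 1410 below MOG without overlap in GB20, and 1129 above and 1180 below in GV16. In GB20 vs. GV16, 0 of 33 passed (all genes 0.00546%), 1 of 33 had an unadjusted p under 0.05 (all genes 2.93%) and 3 of 33 did not overlap (all genes 8.34%). The median log2 fold changes were -0.05, -0.03 and -0.05 in these comparisons, beside 0.0008, 0.0024 and 0.001 over all tested genes, and the median in GV16 vs. MOG was 0.04 without MOG replicate 1.

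**Figure D4:**
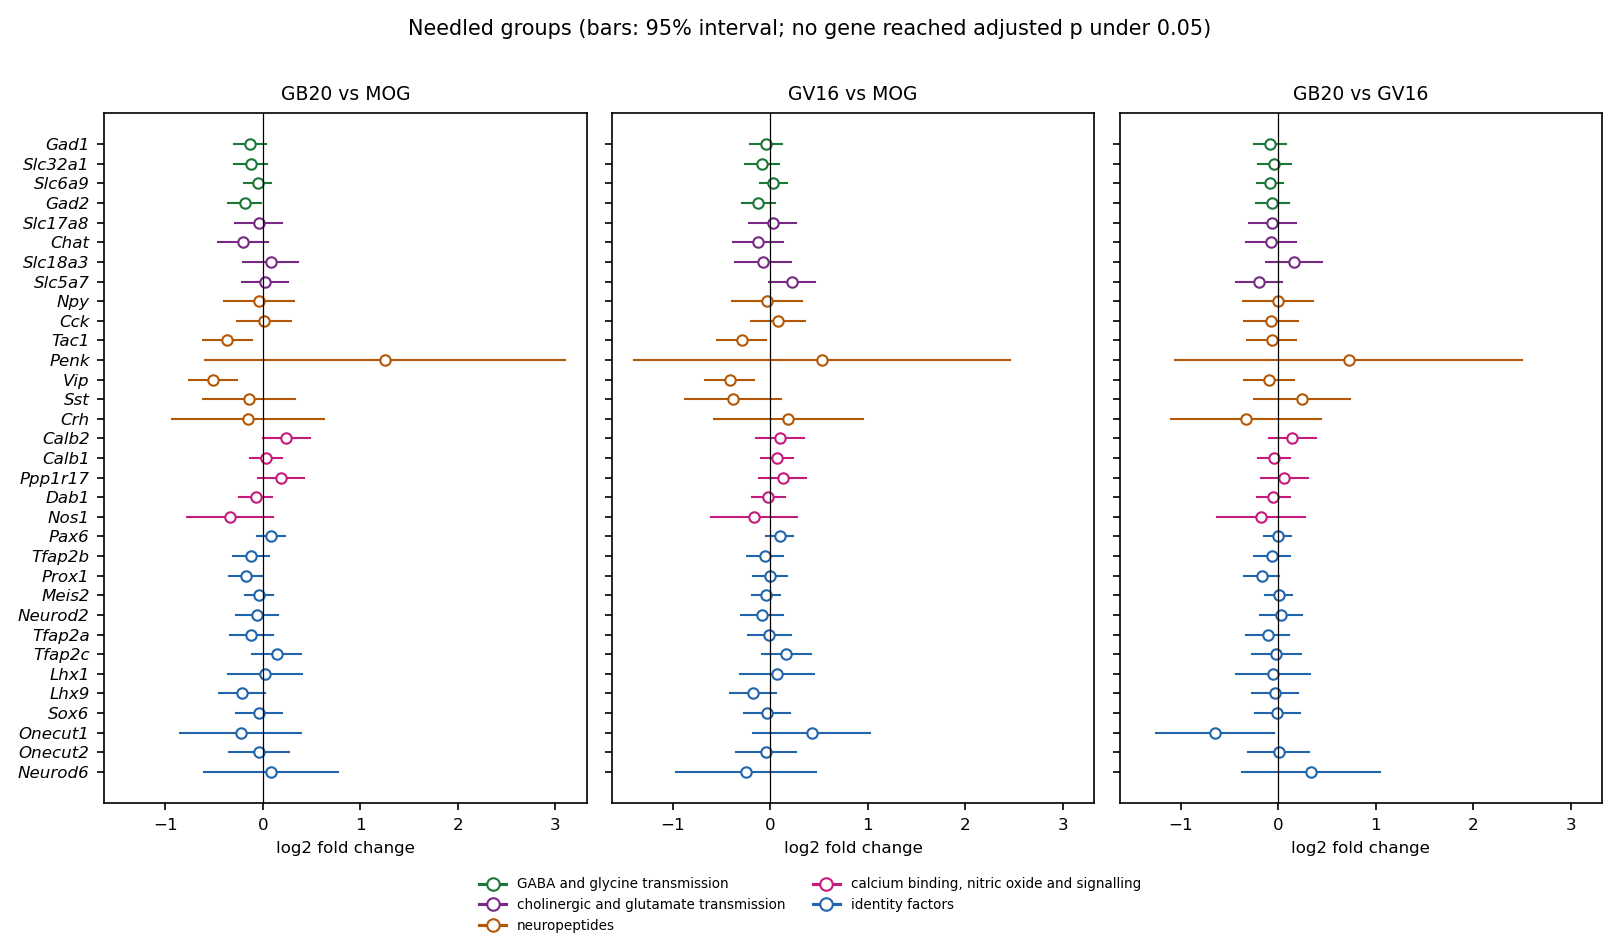
Log2 fold change of the 33 tested genes in both needled groups vs. MOG and in GB20 vs. GV16, with bars for the 95% intervals and colours for the role. No gene passed an adjusted p under 0.05, Vip and Tac1 lie below 0 with both needled groups vs. MOG, and the interval of Penk is the widest. Both comparisons with MOG share the MOG libraries.

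Of the GABA and glycine genes, Gad1 and Gad2 make GABA, Slc32a1 loads GABA and glycine into vesicles and Slc6a9 takes up glycine. None of the 4 passed in any of the 6 comparisons, and their log2 fold changes lay between -0.07 and 0.04 in MOG vs. SHAM. All 4 had negative log2 fold changes in GB20 vs. SHAM (median -0.12), vs. MOG (median -0.13) and vs. GV16 (median -0.07). Gad1 was at 245.7, 237.0 and 243.1 CPM in SHAM, and at 275.3, 220.8 and 243.0 CPM in MOG, so that both groups overlapped. In GB20 it was at 209.7, 234.2 and 230.2 CPM, below all 3 SHAM libraries. The log2 fold change of Gad1 in GB20 vs. SHAM was -0.11 (SE 0.079, edgeR quasi-likelihood test, Benjamini-Hochberg adjusted p = 0.776). Gad2 was at 67.3, 57.6 and 59.1 CPM in MOG and at 50.8, 54.5 and 56.8 CPM in GB20. It was at 64.2, 56.1 and 58.4 CPM in SHAM and at 58.7, 52.3 and 57.8 CPM in GV16. The 3 GB20 libraries were below the 3 MOG libraries by Gad2, with a log2 fold change of -0.18 (SE 0.081, edgeR quasi-likelihood test, Benjamini-Hochberg adjusted p = 0.57). Slc32a1 had a mean of 75.5 CPM in both SHAM (SD 5.04, n = 3) and MOG (SD 8.58, n = 3). Slc6a9 had the least spread of the members between libraries of a group, with an SD of 0.0537 on the log2 scale.

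Of the cholinergic and glutamate genes, Chat makes acetylcholine, Slc18a3 loads it into vesicles, Slc5a7 takes up choline, and Slc17a8 loads glutamate in a class of amacrine cells. Slc18a3 lies within the span of Chat on chromosome 14. None of the 4 passed in any comparison. Chat was at 16.7, 12.6 and 13.6 CPM in SHAM and at 16.2, 15.5 and 16.4 CPM in MOG, with overlapping groups. Slc5a7 was at 15.4, 13.8 and 14.9 CPM in SHAM, at 15.6, 14.4 and 16.6 CPM in MOG, at 15, 15.8 and 16.8 CPM in GB20, and at 18.4, 15.4 and 20.6 CPM in GV16. GV16 had the highest libraries by Slc5a7, although its lowest library was level with the highest SHAM library, and the log2 fold change in GV16 vs. SHAM was 0.31 (SE 0.114, edgeR quasi-likelihood test, Benjamini-Hochberg adjusted p = 0.294). Slc17a8 lay between -0.06 and 0.04 on the log2 scale in the 6 comparisons.

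Of the neuropeptide genes, none of 7 passed in any comparison. Vip, the vasoactive intestinal peptide of a class of GABA-releasing amacrine cells, was at 12.5, 14.8 and 14.8 CPM in SHAM and at 16.7, 17.1 and 15.1 CPM in MOG. It was at 12.7, 10.3 and 11.2 CPM in GB20 and at 12.8, 13.1 and 10.8 CPM in GV16. All 6 needled libraries were below all 3 MOG libraries and overlapped SHAM. Both needled groups were compared with the same 3 MOG libraries, which themselves lay above all 3 SHAM libraries, so both differences are not independent. The log2 fold change of Vip was -0.51 in GB20 vs. MOG (SE 0.119, edgeR quasi-likelihood test, Benjamini-Hochberg adjusted p = 0.0922), or -29.8% with a 95% interval from -40.9% to -16.7%, and -0.42 in GV16 vs. MOG (SE 0.119, adjusted p = 0.379). It was 0.22 in MOG vs. SHAM and -0.29 in GB20 vs. SHAM (adjusted p = 0.442). In GB20 vs. MOG the call depended on the processing, since Vip passed under 5 of 19 alternatives, 1 of which left out SHAM replicate 2. GB20 vs. GV16 gave -0.09 with a 95% interval from -0.35 to 0.16, so no difference between the acupoints was detectable for Vip at this depth.

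Tac1, the precursor of substance P, was at 19.0, 24.8 and 20.3 CPM in SHAM and at 21.3, 21.8 and 20.4 CPM in MOG. It was at 15.8, 17.6 and 15.9 CPM in GB20 and at 16.3, 20.7 and 14.7 CPM in GV16. The GB20 libraries were below all SHAM and all MOG libraries, while GV16 overlapped both through its replicate 2. The log2 fold change was -0.36 in GB20 vs. MOG (SE 0.121, edgeR quasi-likelihood test, Benjamini-Hochberg adjusted p = 0.421) and -0.38 in GB20 vs. SHAM (SE 0.121, adjusted p = 0.236), and it was -0.30 and -0.31 in GV16 vs. MOG and vs. SHAM (adjusted p = 0.853 and 0.321). Sst, somatostatin, was at 3.87, 3.59 and 2.66 CPM in SHAM, 3.53, 2.64 and 2.82 CPM in MOG, 2.88, 3.22 and 2.07 CPM in GB20, and 2.67, 2.44 and 1.8 CPM in GV16. SHAM replicate 3 was level with GV16 replicate 1 and the other GV16 libraries were lower than every SHAM library, and the log2 fold change between them was -0.55 (SE 0.233, edgeR quasi-likelihood test, Benjamini-Hochberg adjusted p = 0.375). Npy, Cck and Crh had log2 fold changes between -0.34 and 0.18 in the 6 comparisons.

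Penk, the precursor of enkephalin, differed most between libraries of the same group. It was at 4.18, 9.12 and 6.55 CPM in SHAM, 7.89, 3.5 and 3.06 CPM in MOG, 5.31, 23.2 and 6.64 CPM in GB20, and 14.2, 4.31 and 2.54 CPM in GV16. Every group overlapped every other, and 1 library stood high in GB20 and in GV16. The SD within groups was 0.906 on the log2 scale, more than that of 99.8% of 1758 genes of like level. The log2 fold change of 1.26 in GB20 vs. MOG (SE 0.803, edgeR quasi-likelihood test, Benjamini-Hochberg adjusted p = 0.733) was 0.29 without GB20 replicate 2. Lens markers summed to 10.5 CPM in SHAM replicate 2 and to 5.84 CPM in GB20 replicate 2, the highest Penk libraries of their groups, against between 0 and 0.964 CPM in the other 10 libraries, which include the highest Penk libraries of MOG (0.392 CPM) and GV16 (0.124 CPM). The part of lens tissue in the level of Penk was not tested.

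**Figure D5:**
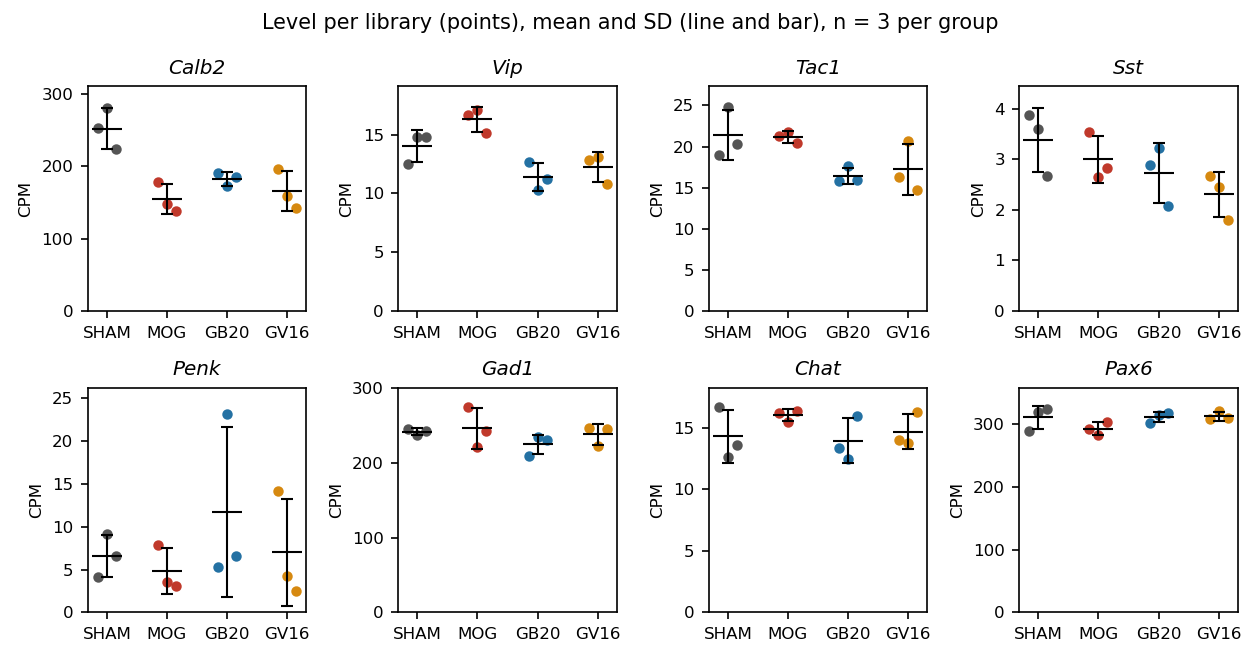
CPM of 8 members in each library (points), with the mean and SD of the 3 libraries of a group (line and bars), on axes that start at 0. Calb2 is higher in SHAM than in every immunized library, Vip and Tac1 have their lower points in the needled groups, Penk has 1 high library in GB20 and in GV16, and Gad1, Chat and Pax6 overlap between SHAM and MOG.

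Of the calcium-binding, nitric oxide and signalling genes other than Calb2, none of 4 passed. Calb1, the calbindin of horizontal and amacrine cells, had a log2 fold change of -0.14 in MOG vs. SHAM with a 95% interval from -0.30 to 0.02. Ppp1r17, a phosphatase inhibitor, was at 12, 15.2 and 12.2 CPM in SHAM and at 13.1, 13.9 and 14.1 CPM in MOG. It was at 16.5, 16.4 and 13.9 CPM in GB20 and at 15.8, 14.5 and 14.5 CPM in GV16. By Ppp1r17, SHAM and GB20 overlapped through SHAM replicate 2, and the log2 fold change in GB20 vs. SHAM was 0.25 (SE 0.115, edgeR quasi-likelihood test, Benjamini-Hochberg adjusted p = 0.534). Dab1, a reelin adaptor, lay between -0.07 and 0.09 on the log2 scale in the 6 comparisons. Nos1, the neuronal nitric oxide synthase, had wider intervals and lay between -0.38 and -0.04.

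Of the transcription factors, none of 13 tested members passed in any comparison. Pax6, a factor of amacrine, horizontal and ganglion cells, was at 289.5, 319.4 and 323.3 CPM in SHAM and at 292.4, 281.9 and 303.6 CPM in MOG, with a log2 fold change of -0.09 and a 95% interval from -0.23 to 0.06. The AP-2 factors of amacrine cells Tfap2a, Tfap2b and Tfap2c had log2 fold changes of 0.01, 0.08 and -0.06 in MOG vs. SHAM. Of the horizontal cell factors, Prox1, Lhx1, Onecut1 and Onecut2 had log2 fold changes of 0.11, -0.23, 0.13 and 0.06. Lhx1 was below SHAM in all 3 MOG libraries, at 6.04, 5.53 and 6.3 CPM against 6.72, 6.59 and 7.71 CPM, without passing. Lhx9 was above SHAM in all 3 MOG libraries, at 14.4, 13.3 and 12.8 CPM against 11.8, 12.2 and 11.6 CPM, likewise without passing. Meis2, Sox6 and Neurod6 had log2 fold changes of 0.04, -0.04 and -0.13.

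Neurod2, a factor of some amacrine cells, was at 23.4, 24.6 and 22.3 CPM in SHAM and at 22.5, 17.8 and 21.9 CPM in MOG. It was at 19.9, 21.5 and 18.3 CPM in GB20 and at 19.6, 19.2 and 19.8 CPM in GV16. All 6 needled libraries were below SHAM, with log2 fold changes of -0.23 in GB20 (SE 0.101) and -0.26 in GV16 (SE 0.102), and edgeR quasi-likelihood test, Benjamini-Hochberg adjusted p = 0.487 and 0.318. Onecut1 was at 3.81, 1.23 and 3.11 CPM in SHAM, 2.85, 2.46 and 3.6 CPM in MOG, 2.68, 2.25 and 2.68 CPM in GB20, and 5.15, 3.02 and 3.78 CPM in GV16. GB20 was below GV16 in every library by Onecut1, with a log2 fold change of -0.65 (SE 0.291, edgeR quasi-likelihood test, Benjamini-Hochberg adjusted p = 1.0).

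Genes that receive or clear these transmitters were listed beside the members. No gene passed in any of the 6 comparisons among 18 tested GABA receptor subunits of 21, 5 glycine receptor subunits of 5, 10 genes of GABA and glycine uptake and breakdown of 10, 6 genes of acetylcholine breakdown and muscarinic receptors of 7, and 15 neuropeptide receptors of 22. Their median log2 fold changes in MOG vs. SHAM were -0.0059, 0.16, -0.0064, -0.16 and -0.16. In MOG vs. SHAM, the genes with the smallest unadjusted p of these lists were Gabbr2 (-0.26) and Gabrg1 (-0.27), Glra1 (0.46) and Glra3 (0.16), Gcsh (-0.13) and Gldc (0.09), Chrm1 (-0.27) and Chrm3 (-0.18), and Crhr1 (-0.42) and Npy1r (-0.52), all as log2 fold changes. Of 21 tested of 23 further amacrine and horizontal cell markers, Pvalb passed in all 3 comparisons with SHAM. In MOG vs. SHAM, 16 of the 21 had a negative log2 fold change (median -0.09), 5 had an unadjusted p under 0.05 (23.8%, against 13.0% of all genes) and 7 did not overlap (33.3%, against 16.2%), each of them below SHAM. Pvalb, parvalbumin, which ganglion cells of the mouse also make, was at 17.1, 17.5 and 11.5 CPM in SHAM and at 9.68, 6.45 and 6.54 CPM in MOG, without overlap. Pvalb fell by 1.02 on the log2 scale in MOG vs. SHAM (SE 0.199, edgeR quasi-likelihood test, Benjamini-Hochberg adjusted p = 0.0114), a call that was lost without SHAM replicate 1, SHAM replicate 2, MOG replicate 2 or MOG replicate 3, and by 0.95 and 1.18 in GB20 and GV16 vs. SHAM.

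Among markers of other cells, 8 cone markers had 1 DEG (higher in GV16 vs. SHAM), 8 Müller glia markers had Aqp4 higher in MOG vs. SHAM and lower in both needled groups vs. MOG and had Rlbp1 lower in GV16 vs. SHAM (named after their values were seen), and 8 microglia markers had 2 higher in MOG vs. SHAM and 1 higher in GV16 vs. SHAM. Markers of vessels (7) and blood (3 tested of 5) had 0. In GB20 vs. MOG, 3 vessel markers had an unadjusted p under 0.05 (42.9%, against 8.0% of all genes). Without overlap, 4 lay below MOG (57.1%, against 15.7%). In GV16 vs. MOG these counts were 3 (42.9%, against 5.3%) and 2 (28.6%, against 12.6%). In GB20 vs. SHAM they were 2 (28.6%, against 9.06%) and 4 (57.1%, against 12.7%). Of the 8 pigment epithelium markers 0 passed, but 4 had an unadjusted p under 0.05 in MOG vs. SHAM and 4 lay above SHAM without overlap. Their summed level was between 17.9 and 24.7 CPM in SHAM, 34.6 and 47.8 CPM in MOG, 35.5 and 41.2 CPM in GB20, and 19.7 and 58.9 CPM in GV16, and their part in the MOG vs. SHAM values was not tested. The 5 lens markers did not pass the filter on low counts.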

How the data were processed

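Retinal RNA of 12 libraries was measured. The authors aligned reads with HISAT2 2.0.5 (mm10 per the labels), counted them per gene with FeatureCounts and deposited whole-number counts without normalization. FPKM values, likewise deposited by the authors, were computed from gene length and count, and their denominators were 98.2% to 101.9% of the total count. The annotation release, the strand setting and the treatment of multiply aligned reads were each not given in the sources used here. Symbols and coordinates came from GENCODE vM21, which matched 54495 of 54532 identifiers.

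Counts of all 12 libraries were fitted in R 4.3.3 with edgeR 4.0.16 (TMM scaling, filterByExpr, 18299 genes, robust quasi-likelihood, 1 mean per group, 8 residual degrees of freedom), with Benjamini-Hochberg adjustment over all genes and a threshold of 0.05. CPM used TMM library sizes. Alternatives used DESeq2 1.42.0, limma 3.58.1, another scaling, no filter, a replicate block, a length trend and leaving out each library. Fits were tested on simulated data. Pairs of libraries of a group differed by more than sampling noise (chi-square per gene between 2.87 and 15.0 over 12 pairs). The highest values, 15.0 and 10.8, were both for pairs with SHAM replicate 2, and the next was 6.35. Figures used Python 3.11.15 and matplotlib 3.10.9. Library values were given for members with an unadjusted p under 0.05 in any comparison, and also for Gad1, Chat and Pax6, which had no such p. Of the related lists, the genes called and the 2 with the smallest p per list in MOG vs. SHAM were to be named. Among these, Pvalb was given with library values and the others by their log2 fold change. One gene that this rule names is not reported here. Penk, and the members named for not overlapping, were chosen after their values were seen. The members and lists were chosen with earlier results of these data known.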

Additional observations from a re-analysis of the deposited data

How the results depend on the processing

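Over 19 alternatives, the call of Calb2 in MOG vs. SHAM was kept in each, with log2 fold changes between -0.82 and -0.62. Of 570 values for 30 gene results, 551 kept their direction and side of the threshold, 8 lost a call, 11 gained one and 0 reversed. In GB20 vs. MOG, 1 member (Vip) passed with no filter, with edgeR or DESeq2 on the 6 libraries and with the length trend removed, and between 0 and 1 passed when libraries were left out (1 without SHAM replicate 2). In GB20 vs. SHAM, 1 member (Calb2) passed with no filter and with edgeR or DESeq2 on the 6 libraries, and between 0 and 1 passed when libraries were left out (1 without GV16 replicate 1). In GV16 vs. SHAM between 0 and 1 passed when libraries were left out. The median of the members lay between -0.063 and 0.0515 in MOG vs. SHAM and between -0.0866 and 0.0368 in GV16 vs. MOG when libraries were left out. Glra1 in MOG vs. SHAM passed only with no filter, and its log2 fold change lay between 0.17 and 0.69 over the alternatives. The cause was not tested for any of these.

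The labels give the groups the same replicate numbers. Same-numbered libraries had correlated deviations over 0.1 in 3 of 18 pairs (-0.0966 to 0.286). However, 11 of 12 libraries had their best correlation with a library of their own number. These values do not settle whether libraries of the same number were paired, and the main fit treated them as unpaired. The experiment was repeated 3 times, but whether the number marks the repeat is not stated. With the replicate block, 1 member (Calb2, -0.46, adjusted p = 0.00727 in edgeR) passed in GB20 vs. SHAM, where 0 had, and Calb2 still passed in MOG vs. SHAM and GV16 vs. SHAM.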

Other observations

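The libraries with a high Penk level were also those with a high level of Slc6a13, a GABA transporter of the list of uptake genes, which was noticed after the values were seen. Slc6a13 was at 1.45, 2.71 and 2.16 CPM in SHAM, 2.35, 1.23 and 1.38 CPM in MOG, 1.6, 4.01 and 1.64 CPM in GB20, and 2.61, 1.74 and 1.11 CPM in GV16. SHAM replicate 2, MOG replicate 1, GB20 replicate 2 and GV16 replicate 1 had the highest level of their group for both Penk and Slc6a13.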
